A study of Homo sapiens with 6 samples.

Results

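The comparison described here sets U87MGL, a non-invasive derivative of a human glioma line, against U87MG, the parental line it was raised from, across the autosomal genes. It was defined by array titles: the arrays titled U87MGL2 and U87MGL3 formed the U87MGL group and both arrays titled U87MG formed the parental group, so 4 of the 6 arrays of the series entered it. The other 2 arrays held U87MGR, the highly invasive derivative, and served for the estimate of spread and for values set beside the comparison. Of 14513 genes tested, the 13998 autosomal genes are described, each through the brightest of its probe sets.

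U87MG is an established glioblastoma cell line, here obtained from a cell repository and grown in DMEM with serum. Per the labels, parental cells were placed in the striatum of immunodeficient BALB/c nu/nu mice, the tumours were taken apart, and the cells went back into culture. After 4 such rounds, the labels give a non-migratory and a migratory derivative. U87MGL and U87MGR therefore share the passages through mouse brain and the return to culture, whereas U87MG had neither. No genetic change or drug is given for any group. The numbers 2 and 3 in the titles are not explained, and the titles call the arrays biological replicates. If the numbers mark sublines, the spread within U87MGL includes that between sublines.

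Glioblastoma cells divide, remodel the matrix around them and secrete factors that act on brain cells and immune cells. In dividing cells, genes of DNA replication are switched on before S phase through E2F factors, and genes of mitosis later, through promoter elements called CCAAT boxes and cell cycle genes homology regions (CHR). MHC class II molecules, which display peptides to T helper cells, are found mainly on immune cells but also on some gliomas. Their chains are held together by the invariant chain CD74 until a peptide is loaded. Genes of the extracellular matrix, the plasminogen activator system and Wnt signalling have all been studied in glioma invasion.

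Values are log2 signals of probe sets, so a difference of 1 is a doubling. Array medians lay between 5.29 and 5.35, and the replicate-to-replicate difference had an SD across tested genes of 0.45 for U87MG and 0.28 for U87MGL. Probe sets for spiked-in RNA, which is added from outside, put both U87MGL arrays together with U87MGR replicate 1. They put U87MG replicate 1 with U87MGR replicate 2 and left U87MG replicate 2 by itself. Distances over 45 such probe sets were 0.90 to 1.44 for arrays of a shared batch and 5.59 to 8.84 otherwise. U87MGL and U87MG arrays never fell in the same batch, so no difference between these groups could be taken within a batch. U87MG replicate 2 also stood apart in the 5′ control probe set for 18S ribosomal RNA, at 12.52 against 6.00 to 7.98 on the other 5 arrays. The 3′ minus 5′ signal of actin, a sign of RNA quality, was -0.01 and 0.22 in U87MG and 0.39 and 0.28 in U87MGL, and that of GAPDH was 0.03 to 0.07 on all 4 arrays. Batch and group can therefore be told apart only through the U87MGR arrays, in the block fits given with the results, and the part of RNA quality in the differences was not tested.

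The cells were checked against marker genes. Vimentin (VIM) lay at 14.30 to 14.46, CD44 at 12.96 to 13.30 and tenascin C (TNC) at 11.88 to 12.30 on the 4 arrays, all genes that glioma cells express strongly. The astrocyte filament gene GFAP was at 5.21 to 5.45, and S100B and AQP4 lay under the filter of 4.73 on all 4. Cells brought along from the tumours would be those of the mouse host. The probe sets are for human genes, so marker levels of other cell types cannot show whether such cells were present. On every U87MG and U87MGL array, 5 of 15 measured microglia and macrophage markers were below the filter (among them PTPRC, CX3CR1 and P2RY12). So were 4 of 18 for endothelium and pericytes (CDH5, TIE1, EMCN, ERG). The same held for 6 of 15 for neurons (among them STMN2, NEFL and NEFM) and 6 of 13 for oligodendrocytes (among them MOG, MAG and OLIG1). Of all 19775 genes, 14513 had a mean over the 6 arrays at or above that filter. Other markers of these lists were well above it, such as CSF1R at 7.45 to 7.85, ENG at 7.91 to 9.08, PECAM1 at 6.18 to 6.39, SNAP25 at 9.21 to 9.73, CNP at 9.70 to 9.79 and UGT8 at 8.98 to 9.89. The summed log2 level of a list lay at 9.34 to 9.45 in U87MG and 9.26 to 9.27 in U87MGL for microglia, 10.65 to 11.15 and 10.66 to 10.79 for endothelium, 10.33 to 10.41 and 10.47 to 10.60 for neurons, and 10.81 to 10.90 and 11.16 to 11.17 for oligodendrocytes. Called genes numbered 0 of 8 tested for microglia, 0 of 9 for neurons, 0 of 7 for oligodendrocytes and 2 of 14 for endothelium and pericytes, where ABCC9 rose by 0.83 (0.41 as a mean over its probe sets) and PDGFRB fell by 0.97. For endothelium and pericytes 7.14% were called in each direction, against 2.91% higher and 1.8% lower over all genes. Among markers not called, TMEM119 differed by -1.0 (limma adjusted p = 0.275, or -1.64 to -0.36 with a U87MGL array left out), GAD1 by 0.50 (0.158, or 0.18 and 0.16 in the block fits) and CSPG4 by 1.43 (0.0509, or 0.86 with 3 batches).

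In all, limma called 408 autosomal genes higher in U87MGL (2.91% of those tested) and 252 lower (1.8%), at a Benjamini-Hochberg adjusted p under 0.05 over all 14513 genes. The median difference over all autosomal genes was -0.02. Among called genes, 274 rose and 181 fell by at least 2-fold, 44 rose and 44 fell by at least 2 on the log2 scale, and the smallest called change was 0.69. The U87MGL arrays lay wholly above the U87MG arrays for 27.9% of genes and wholly below for 28.4%, so such a separation alone is common with 2 arrays a group. An exact permutation test of 2 against 2 arrays cannot go below p = 0.333. Each call therefore rests on the spread that limma shares across genes. For 482 of the 660 called genes the U87MGR mean lay between the U87MG and U87MGL means. For 156 it lay beyond the U87MGL mean, and for 22 past the U87MG mean on the other side. Most called genes thus differed from U87MG in the same direction in both derivatives. Both comparisons use the U87MG arrays, so part of this shared direction is built in.

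**Figure D1:**
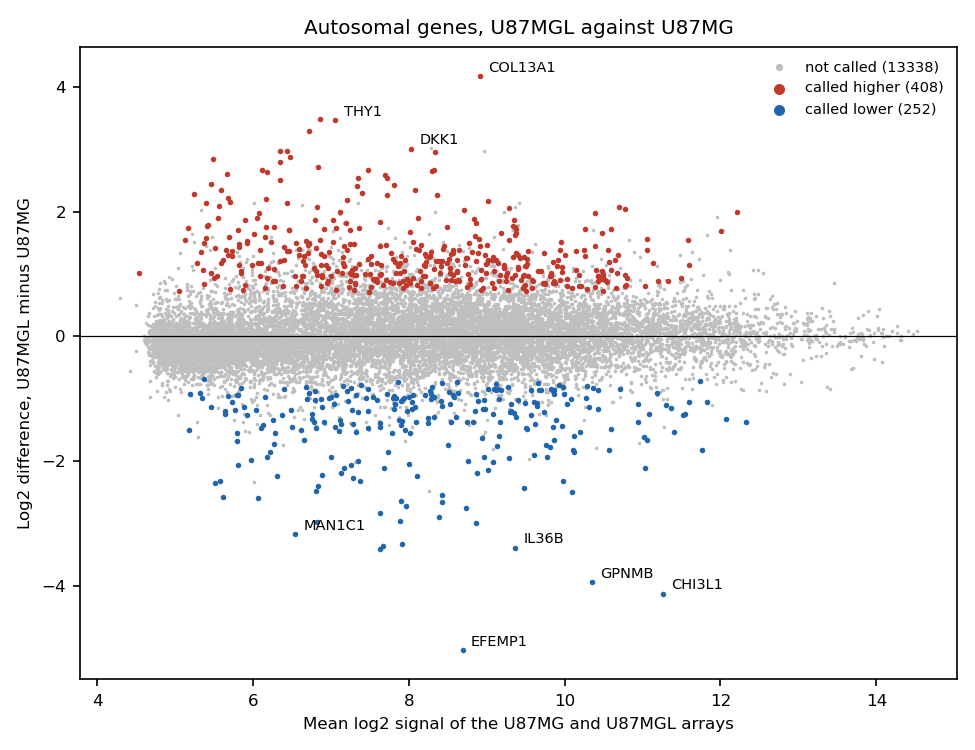
Log2 difference, U87MGL minus U87MG (y axis), against the mean log2 signal of the 4 arrays (x axis) for the 13998 autosomal genes tested, each a point, with 408 called higher in red and 252 called lower in blue by limma. Called genes are found from low to high signal, and the extremes are COL13A1 at 4.18 and EFEMP1 at -5.04.

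The counts depended strongly on single arrays and on the batches. When U87MG replicate 1 was left out they were 839 higher and 640 lower, and when replicate 2 was left out 207 and 151. Leaving out the first U87MGL array gave 80 and 78, and leaving out the second gave 15 and 19. Without either U87MGR array, or with the 4 arrays alone, they were 113 and 86. With the spike-in batches entered as a block of 2, limma called 0 and 0 (615 and 568 at an unadjusted p under 0.05), and as a block of 3, 0 and 0 (1058 and 1080). Those block fits reach U87MG only through the U87MGR arrays. The sizes moved less: the median absolute difference of the 660 called genes was 1.2, and 1.15 and 1.08 in the block fits. Of 133 called genes that the naming rule picked, 15 lost the call when U87MG replicate 1 was left out and 68 when its replicate 2 was, 77 and 116 when U87MGL replicate 1 or 2 was, and 73 when either U87MGR array was. Of the 660, 28 genes, 13 higher and 15 lower, were called each time 1 of the 6 arrays was left out. The 13 include PXDN, THY1, KRT15, RBMS3 and SLC26A4, and the 15 include EFEMP1, CHI3L1, MAN1C1, CH25H and LPAR1.

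**Figure D2:**
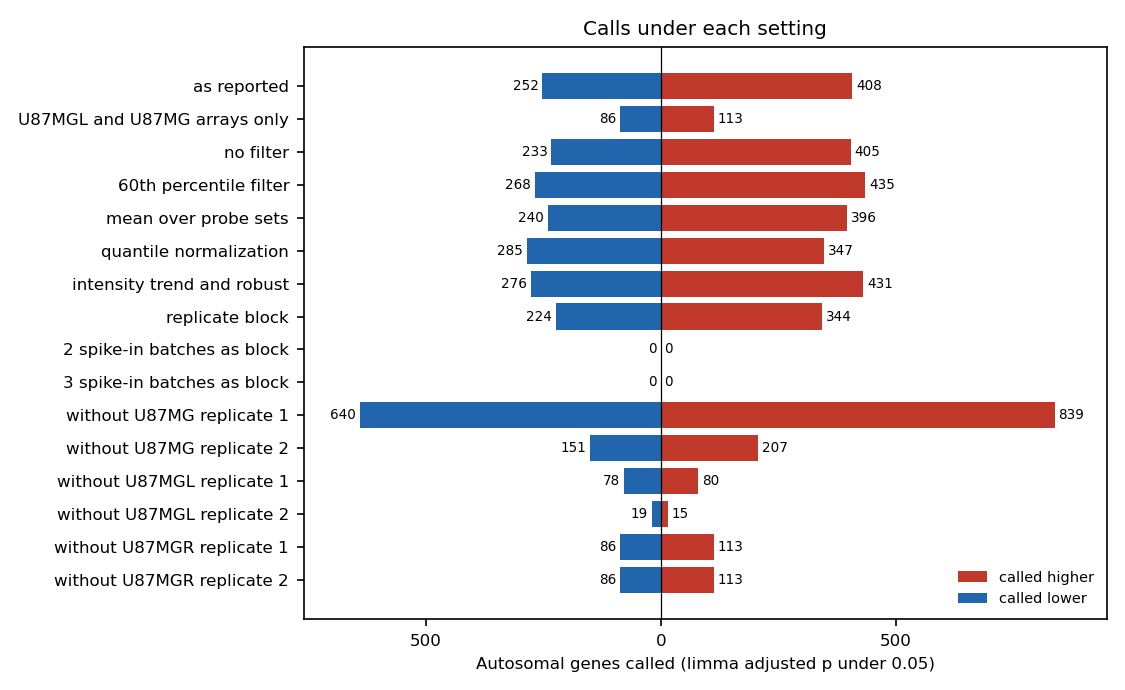
Number of autosomal genes called higher (red, to the right) and lower (blue, to the left) in U87MGL by limma, under the reported fit and each alternative, with the count at each bar. Bars range from 0 and 0 once spike-in batches are entered to 839 and 640 without U87MG replicate 1.

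Genes of mitosis were higher in U87MGL almost throughout. Of 51 tested, 26 rose and none fell (51.0% called higher, against 2.91% of all genes), and the median difference was 0.95 against -0.02 over all autosomal genes. All 51 differences were above 0. For 48, both U87MGL arrays lay above both U87MG arrays, which held for 27.9% of all genes. The median log2 signal of the list was 9.29 and 9.12 on the U87MG arrays and 10.04 and 10.14 on the U87MGL arrays. In bulk RNA, more dividing cells and more of each transcript per dividing cell cannot be told apart.

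MKI67, the proliferation antigen Ki-67, was at 8.46 and 8.65 in U87MG and at 10.07 and 10.30 in U87MGL, a 3.09-fold rise (log2 difference 1.63, SE 0.17, limma adjusted p = 0.00907). KIF23, a kinesin of the midzone where the cells part, was at 8.30 and 7.61 in U87MG and at 9.77 and 9.78 in U87MGL (1.82, SE 0.29, limma adjusted p = 0.023). ANLN, the anillin of the contractile ring, was at 9.96 and 9.35 and at 11.25 and 11.35 (1.65, SE 0.23, limma adjusted p = 0.0182). In each of the 3 genes the groups were well apart, and the parental arrays differed more from each other than the U87MGL arrays did for KIF23 and ANLN. Both U87MGR arrays were also above both parental ones, at 10.20 and 10.18 for MKI67, 9.87 and 9.24 for KIF23 and 11.83 and 11.51 for ANLN. The comparisons share the U87MG arrays.

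Other called members covered most steps of division. They include the mitotic kinases AURKA (0.98), AURKB (1.01), TTK (1.32) and BUB1 (1.22), cyclin A2 (CCNA2, 1.26) and its partner CDK1 (0.87). They also include the spindle motor KIF11 (1.22), topoisomerase TOP2A (1.56), the separase ESPL1 (1.30) and the transcription factor FOXM1 (1.08). Least moved were BUB3 (0.12), INCENP (0.10) and CDC25B (0.08), which did not pass the test. In the block fits with 2 and 3 spike-in batches the list median was 0.74 and 0.56, the difference was 1.18 and 0.83 for KIF23, and ANLN differed by 1.02 with 3 batches. Called members numbered 38 or 6 when U87MG replicate 1 or 2 was left out, 2 or 0 for U87MGL replicate 1 or 2, and 6 for either U87MGR array, while the list median stayed between 0.83 and 1.14.

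Of the 21 called mitosis genes with a listed promoter, 11 held both a CHR and a CCAAT box there. Printed below are the 120 bases before the start of 6 called genes of division that hold both elements, from RefSeq promoters of GRCh38.p14, 5′ to 3′ on the gene's strand, with the elements in capitals: CHR as TTTGAA or its reverse complement TTCAAA, and the CCAAT box as CCAAT or ATTGG. KIF23 lies at chr15:69414229-69414348 (plus strand), MKI67 at chr10:128126424-128126543 (minus), PRC1 at chr15:90994536-90994655 (minus), KIF11 at chr10:92593010-92593129 (plus), ESPL1 at chr12:53268179-53268298 (plus) and CDCA8 at chr1:37692396-37692515 (plus).
KIF23: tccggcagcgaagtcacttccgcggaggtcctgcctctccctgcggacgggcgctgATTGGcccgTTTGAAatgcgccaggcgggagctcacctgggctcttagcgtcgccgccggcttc
MKI67: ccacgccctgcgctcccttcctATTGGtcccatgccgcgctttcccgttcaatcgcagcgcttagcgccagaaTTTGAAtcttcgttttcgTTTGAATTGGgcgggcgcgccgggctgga
PRC1: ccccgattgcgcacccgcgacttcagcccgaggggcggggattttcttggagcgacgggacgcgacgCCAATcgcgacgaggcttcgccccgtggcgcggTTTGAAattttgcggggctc
KIF11: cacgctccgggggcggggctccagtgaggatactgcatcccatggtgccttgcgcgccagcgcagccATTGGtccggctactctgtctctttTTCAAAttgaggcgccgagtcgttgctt
ESPL1: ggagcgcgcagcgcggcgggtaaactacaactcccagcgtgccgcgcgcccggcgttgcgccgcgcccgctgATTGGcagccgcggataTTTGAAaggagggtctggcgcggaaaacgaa
CDCA8: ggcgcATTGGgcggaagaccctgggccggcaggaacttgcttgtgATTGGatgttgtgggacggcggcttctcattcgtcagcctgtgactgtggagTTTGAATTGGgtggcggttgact
In MKI67 and CDCA8 a CHR and a CCAAT box share a base. PRC1, a bundler of midzone microtubules, rose by 1.31, and CDCA8, the borealin subunit of the complex that corrects chromosome attachment, by 1.27.

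Over the 250 bases before the start, on both strands, a CHR was found in 13 of the 21 called mitosis genes with a promoter in the table (61.9%) and in 10 of the 22 tested members that were not called (45.5%). Among 11160 promoters of tested autosomal genes the share was 8.73%. CCAAT boxes were in 15 of 21 (71.4%) and 18 of 22 (81.8%), against 34.3%, and both elements together in 11 of 21 (52.4%) and 9 of 22 (40.9%), against 3.47%. Called and uncalled members thus had shares near each other, and both had higher shares than promoters of all tested genes. A match to these letters is a description and not a measured site.

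DNA replication genes were higher as well, but fewer passed the test. Of 43 tested, 5 rose and none fell (11.6% called higher, against 2.91% of all genes). The median difference was 0.68, and 42 of the 43 differences were above 0. RRM2, the subunit of ribonucleotide reductase that makes deoxynucleotides for S phase, was at 11.42 and 10.90 in U87MG and 12.75 and 12.95 in U87MGL (log2 difference 1.69, SE 0.22, limma adjusted p = 0.0152). TYMS, which makes thymidylate, rose by 1.14, ORC6 of the origin recognition complex by 1.05 and GINS2 of the replicative helicase by 1.30. GINS4, of the same helicase, was at 6.94 and 7.01 against 9.44 and 9.80 (2.65, SE 0.52, limma adjusted p = 0.0386). Its U87MGR arrays were far apart, at 9.73 and 7.90, and its difference was 0.82 and 0.85 with 2 and 3 batches as a block and 0.90 as a mean over its probe sets. By that mean GINS2 differed by 0.58, and RRM2 by 1.12 with 3 batches. With U87MG replicate 1 or 2 left out, 18 or 2 members were called, with U87MGL replicate 1 or 2 left out, 1 or 0, and with either U87MGR array left out, 3. In the 4 called members with a promoter in the table, 0 held a CHR and 3 a CCAAT box.

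Of 10 tested histone genes of the replication-dependent clusters, whose transcripts mostly lack poly(A) tails, only H3C2 rose (1.41). The share called higher was 10.0%, against 2.91% of all genes. The list median was 0.72, with 0.43 without U87MGL replicate 1 and 1.0 and 1.08 in the block fits. H3C2 was at 4.75 and 4.86 in U87MG and at 6.32 and 6.10 in U87MGL, and its difference was 0.81 and 0.86 in the block fits. Among 21 targets of p53, which halts division after DNA damage, 4 rose and 1 fell (19.0% and 4.76%, against 2.91% and 1.8% of all genes). Their median was 0.40, which was 0.26 without U87MG replicate 1 and 0.24 without U87MGL replicate 2. PMAIP1, the death promoter NOXA, rose by 1.19 (1.80 with 3 batches), TP53I3 by 0.99, DDB2 by 0.91 (0.46 and 0.48 in the block fits) and the polymerase POLH by 0.85. PHLDA3 fell, from 9.42 and 9.47 to 8.07 and 8.42 (-1.2). Of the 21 differences, 16 were above 0 and 5 below.

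**Figure D3:**
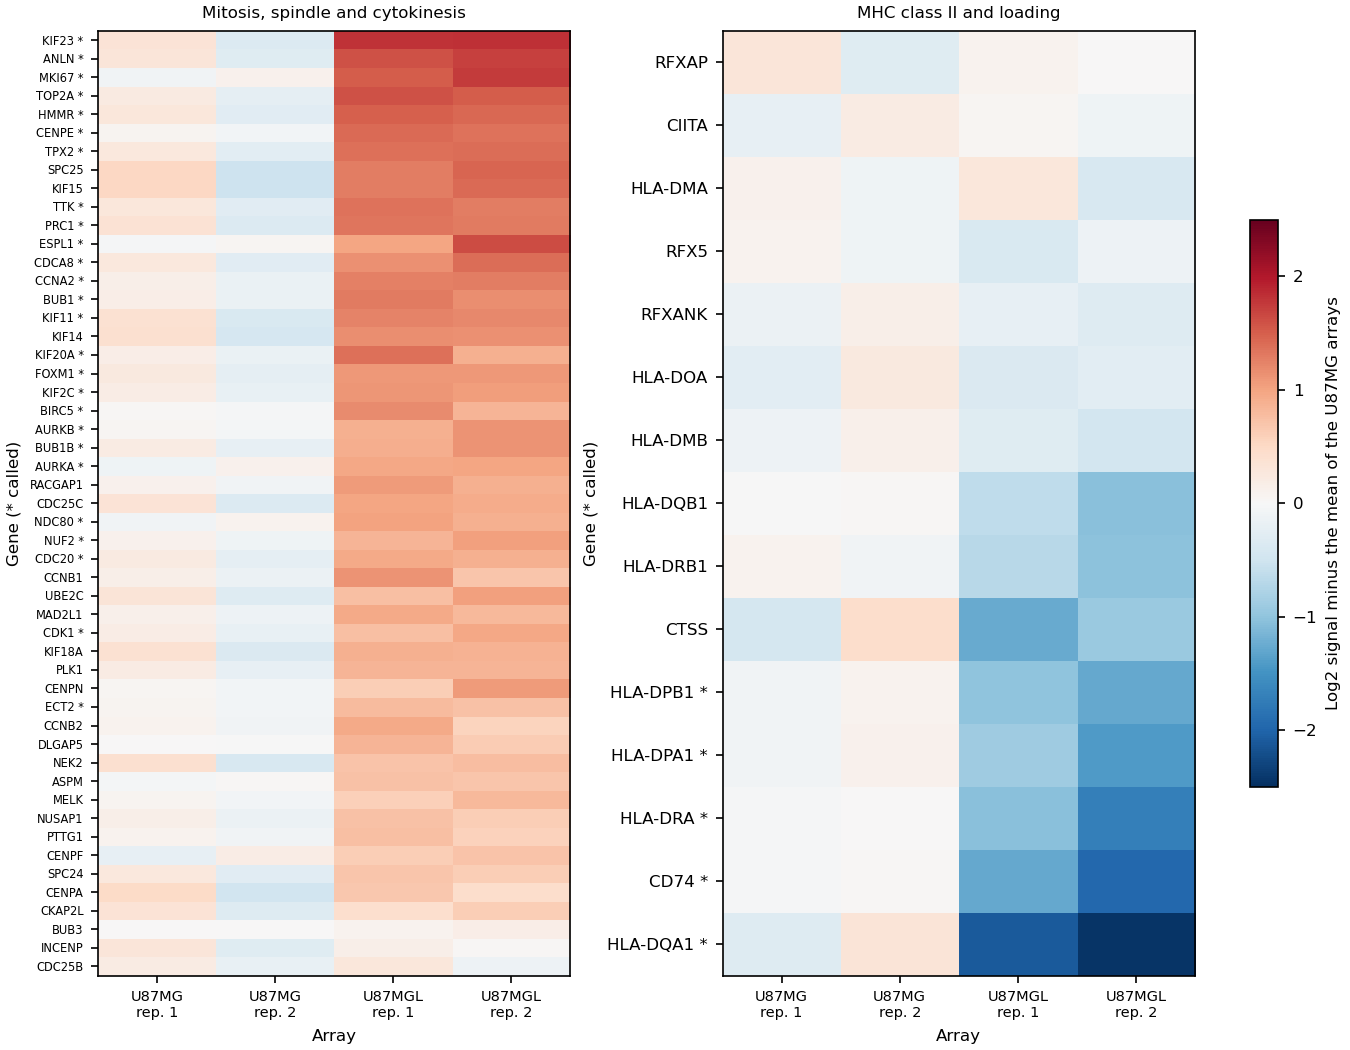
Log2 signal of each array minus the mean of the U87MG arrays (colour scale) for the 51 tested mitosis genes (left) and the 15 tested MHC class II genes (right), with columns for the 2 U87MG and 2 U87MGL arrays and an asterisk at called genes. Both U87MGL columns are red for the upper mitosis genes, led by KIF23 at 1.82, and blue for CD74 and most class II chains, led by HLA-DQA1 at -2.28.

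Genes of MHC class II antigen presentation were lower in U87MGL. Of 15 tested, 5 fell and none rose (33.3% called lower, against 1.8% of all genes), and the median was -0.84. For 12, both U87MGL arrays lay below both parental arrays, which held for 28.4% of all genes. HLA-DQA1, an alpha chain, was at 8.10 and 8.74 in U87MG and at 6.32 and 5.96 in U87MGL, 4.86-fold lower (log2 difference -2.28, SE 0.25, limma adjusted p = 0.0104). CD74, the invariant chain, was at 11.81 and 11.85 against 10.56 and 9.86 (-1.62, SE 0.24, limma adjusted p = 0.0187). HLA-DRA, the alpha chain of HLA-DR, was at 11.61 and 11.64 against 10.59 and 9.92 (-1.37, SE 0.30, limma adjusted p = 0.0492). In all 3 the second U87MGL array was the lowest of the U87MG and U87MGL arrays, and for CD74 and HLA-DRA the parental arrays were nearly equal. HLA-DPA1 (-1.15) and HLA-DPB1 (-1.14) fell too. The U87MGR arrays were also below both parental ones, at 5.72 and 5.45 for HLA-DQA1, 10.16 and 10.06 for CD74 and 10.28 and 9.59 for HLA-DRA.

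CIITA, the coactivator that switches class II genes on, was at 5.71 and 6.12 in U87MG and 5.95 and 5.81 in U87MGL (-0.03, limma adjusted p = 0.946), and the groups overlapped. The chains of HLA-DR, DP and DQ are alike in sequence, so the values of single chains are uncertain. As a mean over probe sets HLA-DQA1 differed by -1.13 and CD74 by -0.98, and HLA-DRA by -2.07 with 2 batches. The list median was -1.09 and -0.82 in the block fits and -0.40 as a mean over probe sets. Leaving out U87MG replicate 1 or 2 left 4 or 1 called, leaving out U87MGL replicate 1 or 2 left 2 or 0, and leaving out either U87MGR array left 1.

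None of 19 tested genes of MHC class I and its peptide loading passed the test, though 14 had both U87MGL arrays below both parental arrays (28.4% of all genes did), and the median was -0.51. The chaperone CALR was at 12.16 and 10.45 in U87MG and 9.39 and 9.61 in U87MGL (-1.80, limma adjusted p = 0.11), and its parental arrays differed by nearly as much. It was at -0.95 without U87MG replicate 1 and -0.86 with 2 batches. PDIA3, a disulfide isomerase of the loading complex, was at -1.10 (limma adjusted p = 0.0719), and at -0.73 without U87MG replicate 1, -0.65 with 2 batches and -0.46 as a mean over probe sets. Of 32 tested genes in the list of interferon-stimulated genes SAMD9 rose, from 7.35 and 7.24 to 8.39 and 8.46 (1.13), and none fell. The share called higher, 3.12%, was near the 2.91% of all genes, and 21 of the 32 differences were below 0. Their median was -0.23, but -0.05 when U87MG replicate 2 was left out and -0.06 when U87MGL replicate 2 was.

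Of 16 tested genes of the interleukin-1 family and the inflammasome, which releases its active forms, 5 fell and none rose. That was 31.2% called lower, against 1.8% of all genes. The list median was -0.31, and -0.52 in both block fits. IL1RN, the secreted antagonist of the interleukin-1 receptor, was at 9.30 and 8.79 in U87MG and 5.75 and 6.69 in U87MGL, 7.12-fold lower (-2.83, SE 0.32, limma adjusted p = 0.0104). IL36B, an agonist of the interleukin-36 receptor, was at 10.94 and 11.19 against 6.97 and 8.37 (-3.39, SE 0.50, limma adjusted p = 0.0187). IL36RN, the antagonist of that same receptor, fell by 2.55 on the log2 scale, the decoy receptor IL1R2 by 0.93 and the inflammasome's DNA sensor AIM2 by 1.0. An agonist and antagonists of the family were therefore both lower, and the U87MGL arrays differed from each other for IL36B and IL36RN by more than 1 log2 unit. IL1RN differed by -1.12 as a mean over its probe sets. Both its U87MGR arrays were at 5.54, also below the parental ones. IL1B, looked at after its values were seen, was at 11.06 and 9.71 in U87MG and at 9.67 and 12.91 in U87MGL, so that replicates spread more than the groups (0.90, SE 1.02, limma adjusted p = 0.637). With U87MG replicate 1 left out 6 members were called, and with any other array left out 2.

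The chemokine CCL2, which draws monocytes, was the sole called member of 22 chemokines and cytokines, at 8.56 and 8.86 in U87MG and 7.61 and 6.79 in U87MGL (-1.51). The share called lower was 4.55%, against 1.8% of all genes. SOD2, the mitochondrial superoxide dismutase and a target of NF-kappaB, fell from 9.86 and 10.07 to 8.53 and 8.19 (-1.60). It was the sole called gene of 16 in that pathway's list (6.25% called lower, against 1.8% of all genes). Genes for proteases of the first complement component fell together with the C1R-like gene C1RL. C1S fell from 10.83 and 11.27 to 9.10 and 9.29 (-1.85) and C1R from 10.40 and 11.09 to 9.09 and 8.52 (-1.94). C1RL fell from 7.58 and 7.72 to 6.97 and 6.56 (-0.88). The 3 genes are neighbours on chromosome 12.

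The largest single changes lay in matrix and secreted proteins. EFEMP1, the matrix glycoprotein fibulin-3, was at 11.19 and 11.22 in U87MG and 6.89 and 5.46 in U87MGL, 32.8-fold lower (log2 difference -5.04, SE 0.48, limma adjusted p = 0.00814). CHI3L1, the chitinase-like glycoprotein YKL-40 of mesenchymal glioblastoma, was at 13.35 and 13.32 against 9.83 and 8.58, 17.5-fold lower (-4.13, SE 0.38, limma adjusted p = 0.00795). Both genes were nearly equal on the parental arrays and over 1 log2 unit apart on the U87MGL arrays. The U87MGR arrays were at 6.53 and 5.61 for EFEMP1 and at 10.46 and 10.10 for CHI3L1. COL13A1, a collagen anchored in the cell membrane, went the other way, from 7.53 and 6.11 to 10.94 and 11.06, 18.1-fold higher (4.18, SE 0.48, limma adjusted p = 0.0109, and 2.44 as a mean over its probe sets).

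**Figure D4:**
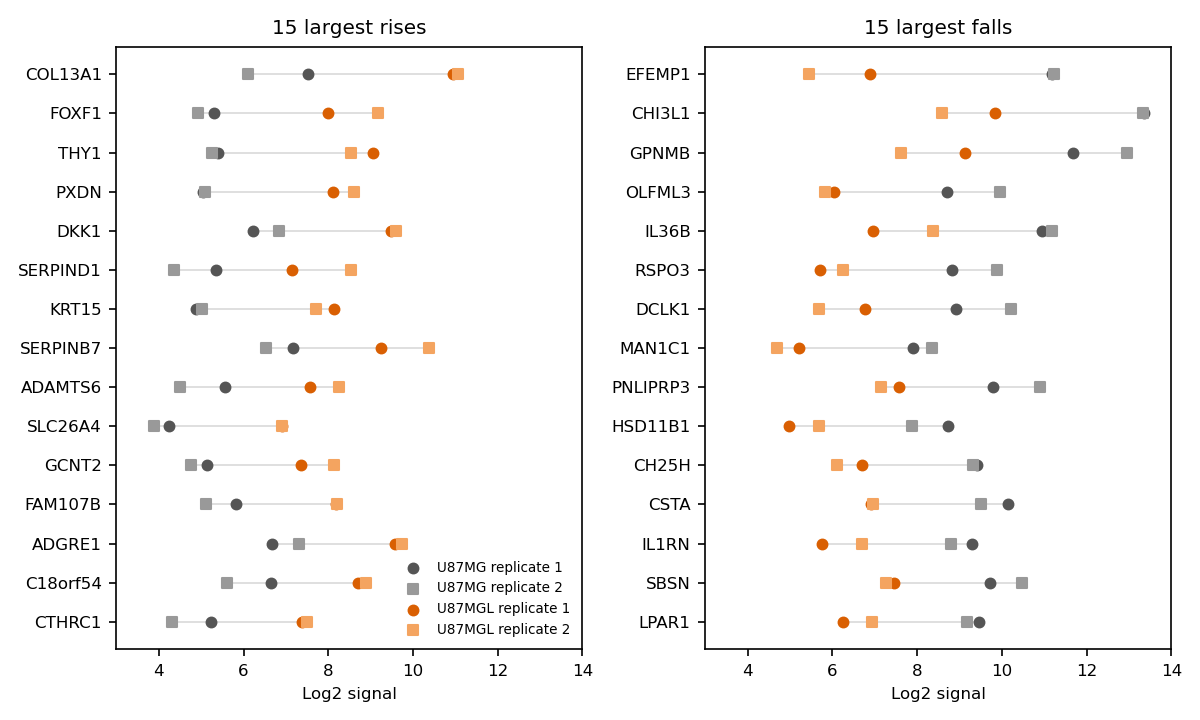
Log2 signal (x axis) of the 15 called autosomal genes with the largest rises (left) and the 15 with the largest falls (right), with U87MG replicates in grey and U87MGL replicates in orange, circles for replicate 1 and squares for replicate 2. In every gene shown the U87MGL points lie apart from the U87MG points, from COL13A1 (10.94 and 11.06 against 7.53 and 6.11) to LPAR1 (6.26 and 6.94 against 9.46 and 9.18).

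COL13A1 was the only called member of 21 tested collagens (4.76% called higher, against 2.91% of all genes), and the list median was 0.00. The fibrillar chains COL1A1 and COL1A2 were high on all 4 arrays, at 11.72 to 12.29 and at 11.77 to 12.72. Of 22 genes of collagen crosslinking and processing, 3 rose and none fell (13.6% called higher, against 2.91% of all genes). PXDN, the peroxidase that joins collagen IV by sulfilimine bonds, was at 5.04 and 5.10 in U87MG and 8.12 and 8.61 in U87MGL (3.29, SE 0.20, limma adjusted p = 0.00298). P3H2, a prolyl hydroxylase of collagen, rose by 2.35 (1.07 as a mean over probe sets, 1.36 with 3 batches), and the transglutaminase TGM2 by 1.66. PXDN was near the parental level in U87MGR, at 4.91 and 4.98, while TGM2 was above U87MGL there, at 10.77 and 11.13. LOX, the lysyl oxidase, was at 11.78 and 10.22 against 12.99 and 12.84 (1.91, limma adjusted p = 0.103), but at 1.13 without U87MG replicate 2 and at 0.62 and -0.17 in the block fits.

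Matrix glycoproteins and proteoglycans moved both ways: 3 of 46 rose and 7 fell (6.52% and 15.2%, against 2.91% and 1.8% of all genes). VCAN, the large proteoglycan versican, was at 9.28 and 9.53 in U87MG and 11.36 and 11.38 in U87MGL (1.97, SE 0.22, limma adjusted p = 0.0104). The cell surface proteoglycan SDC1 rose by 1.38 (0.77 and 0.71 in the block fits) and thrombospondin THBS1 by 0.89. Other THBS1 probe sets above the filter differed by 0.14, 2.53 and 3.16, so the size of its rise is uncertain. LAMA1, a laminin chain of basement membranes, was at 7.19 and 7.68 against 5.05 and 5.33 (-2.24, SE 0.25, limma adjusted p = 0.0104, and -1.21 as a mean over probe sets). The glypican GPC6 fell by 1.82, osteopontin (SPP1) by 1.33, thrombospondin THBS2 by 1.47 and decorin (DCN) by 1.12 (-0.57 as a mean over probe sets). THBS1 and THBS2, which are relatives, thus moved in opposite directions. Leaving out U87MG replicate 1 gave 7 called higher and 7 lower, replicate 2 gave 1 and 3, U87MGL replicate 1 gave 1 and 3 and its replicate 2 gave 0 and 1, and either U87MGR array gave 2 and 3.

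Of 37 matrix proteases and inhibitors, 5 rose and 2 fell (13.5% and 5.41%, against 2.91% and 1.8% of all genes). MMP1, the interstitial collagenase, was at 6.72 and 6.18 in U87MG and 8.37 and 9.60 in U87MGL (2.54, SE 0.42, limma adjusted p = 0.0255). PLAU, the urokinase that turns plasminogen into plasmin, was at 9.82 and 9.70 against 11.22 and 12.38 (2.04, SE 0.34, limma adjusted p = 0.0258), and its receptor PLAUR at 9.91 and 9.57 against 11.13 and 11.79 (1.72, SE 0.26, limma adjusted p = 0.0203). A ligand and its receptor were therefore higher together in the derivative labelled non-invasive. In U87MGR, PLAU was at 11.71 and 11.72 and PLAUR at 11.38 and 11.06, within the range of the U87MGL arrays for PLAU. The secreted metalloproteases ADAMTS6 (2.88, or 1.5 as a mean over probe sets) and ADAMTS1 (1.04) rose. The lysosomal proteases cathepsin K (CTSK, from 12.08 and 13.27 to 11.08 and 10.63, with -1.18 with 3 batches) and cathepsin D (CTSD, -1.34) fell. With U87MGL replicate 2 left out 0 members were called in either direction. Leaving out its replicate 1 gave 4 higher and 0 lower, U87MG replicate 2 gave 1 and 0, its replicate 1 gave 6 and 3, and either U87MGR array gave 1 and 1.

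Serpins, a family of mostly protease inhibitors, gave a pair of large rises. SERPINB7 was at 7.16 and 6.54 in U87MG and 9.25 and 10.37 in U87MGL (2.96), and SERPIND1, the thrombin inhibitor heparin cofactor II, at 5.35 and 4.37 against 7.15 and 8.53 (2.98, or 1.87 with 3 batches). CSTA, a cystatin that inhibits cysteine proteases, fell from 10.15 and 9.50 to 6.91 and 6.95 (-2.90, or -4.47 with 3 batches). In U87MGR all 3 lay on the same side of the parental arrays, SERPINB7 at 10.45 and 10.51, SERPIND1 at 7.84 and 7.22, and CSTA at 6.21 and 4.97. Of 18 tested in the serpin and cystatin list, 2 rose and 1 fell (11.1% and 5.56%, against 2.91% and 1.8% of all genes).

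Adhesion receptors changed in few members. THY1, the surface glycoprotein CD90, was at 5.39 and 5.25 in U87MG and 9.06 and 8.53 in U87MGL, 11.1-fold higher (3.47, SE 0.26, limma adjusted p = 0.00371). In U87MGR it lay at 5.61 and 5.01, on either side of the parental arrays. Of 33 integrins and adhesion receptors, ITGA2, the alpha chain of a collagen receptor, rose by 1.65 and ALCAM by 0.89 beside THY1, and none fell. That was 9.09% called higher, against 2.91% of all genes. Among 29 cadherins, catenins and junction genes 3 fell and none rose (10.3% called lower, against 1.8% of all genes). The protocadherin PCDH18 fell by 2.11 (-1.38 and -1.09 in the block fits and -1.32 as a mean over probe sets). The protocadherin PCDH7 (-0.96, with another probe set at -3.04) and the alpha-catenin CTNNA2 (-1.47) were the others. CTNNA2 was at 7.07 and 6.59 in U87MG and 5.14 and 5.58 in U87MGL, and at 7.32 and 7.58 in U87MGR, the highest of the 3 groups.

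Of 26 genes tied to mesenchymal transition, 1 rose and 4 fell (3.85% and 15.4%, against 2.91% and 1.8% of all genes). The share that rose was thus near that of all genes. FOXF1, a forkhead factor of embryonic mesenchyme, was at 5.3 and 4.93 in U87MG and 8.0 and 9.18 in U87MGL (3.48, SE 0.49, limma adjusted p = 0.0182). PRRX1, a homeobox factor of mesenchyme, fell from 10.63 and 11.42 to 9.15 and 9.22 (-1.83), and FAP, a surface protease of activated fibroblasts, from 10.19 and 10.94 to 8.87 and 8.44 (-1.91, or -1.06 with 3 batches). Members of the list did not move one way, as the median of 0.07 shows. The fibroblast marker list had 1 gene higher (THY1) and 3 lower (FAP, DCN and the podoplanin gene PDPN, at -1.76 or -1.13 as a mean over probe sets) of 9 tested, and its summed log2 level was 13.84 and 13.64 in U87MG and 13.63 and 13.08 in U87MGL. In this fibroblast list 11.1% were called higher and 33.3% lower, against 2.91% and 1.8% of all genes. POSTN and MFAP5 were under the filter on all 4 arrays.

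In the actin list, 4 of 45 rose and 1 fell (8.89% and 2.22%, against 2.91% and 1.8% of all genes). The formins DIAPH3 (1.35) and DIAPH1 (0.96), which extend actin filaments, the crosslinker ACTN4 (1.18) and the membrane linker ezrin (EZR, 1.2) rose. EZR differed by 0.74 and 0.50 in the block fits and was at 8.49 and 8.03 in U87MGR, level with the parental 8.51 and 8.02. CRACD, which inhibits capping protein, fell from 6.61 and 6.64 to 4.54 and 5.35 (-1.68, or -0.93 as a mean over probe sets) and was above both parental arrays in U87MGR, at 7.05 and 7.35.

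The series title names FZD4, a Frizzled receptor for Wnt ligands. It was at 6.95 and 6.45 in U87MG and 6.87 and 6.63 in U87MGL, so the groups overlapped (0.05, limma adjusted p = 0.914, or -0.21 to 0.30 with 1 array left out). Of 22 tested Wnt ligands and receptors, 2 rose and 3 fell (9.09% and 13.6%, against 2.91% and 1.8% of all genes). RSPO3, an R-spondin that strengthens Wnt signals by sparing Frizzled receptors from removal, was at 8.82 and 9.88 in U87MG and 5.70 and 6.26 in U87MGL, 10.3-fold lower (-3.37, SE 0.39, limma adjusted p = 0.011, or -2.21 with 3 batches). FZD2 fell by 0.94 and the pseudokinase coreceptor PTK7 by 1.37 (-0.74 with 2 batches, -0.68 as a mean over probe sets). The ligand WNT5B rose by 1.14 (0.48 as a mean over probe sets) and the receptor ROR1 by 1.78 (1.17 without U87MGL replicate 1). ROR1 was at 4.65 and 4.41 in U87MG and 6.91 and 5.70 in U87MGL, so its parental level was under the filter of 4.73 and the fold is uncertain.

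DKK1, a secreted antagonist that binds the LRP coreceptors, was at 6.22 and 6.83 in U87MG and 9.48 and 9.59 in U87MGL, 8.06-fold higher (3.01, SE 0.31, limma adjusted p = 0.00996). The kinase TNIK (0.77, or 0.48 with 3 batches) was the other called member of 20 inhibitors, targets and feedback genes (10.0% called higher, against 2.91% of all genes). A ligand enhancer was thus lower and an antagonist higher, while the median of both Wnt lists was near 0, at -0.01 and -0.07. In the TGF-beta and BMP list, the BMP antagonist GREM1 was at 10.04 and 9.29 against 11.82 and 11.66 (2.08, SE 0.30, limma adjusted p = 0.0187, or 1.07 with 3 batches), and the receptor BMPR2 rose by 0.91, though another of its probe sets had the opposite sign. GREM1 and BMPR2 were the 2 called members of 32 tested in that list (6.25% called higher, against 2.91% of all genes). None of 21 Notch genes passed. NOTCH3 was at 9.46 and 7.57 in U87MG, which differed by more than the groups (-1.29, limma adjusted p = 0.203, with -0.34 and -2.23 without U87MG replicate 1 and 2). DTX3 was at -0.86 (limma adjusted p = 0.0869, with -0.19 and -0.22 in the block fits).

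Of 37 tested growth factor ligands and receptors 5 rose and 2 fell (13.5% and 5.41%, against 2.91% and 1.8% of all genes). The 5 that rose were all ligands. TGFA, a ligand of the EGF receptor, was at 8.72 and 7.79 in U87MG and 9.85 and 10.79 in U87MGL (2.06, SE 0.41, limma adjusted p = 0.0411, or 0.99 with 3 batches). The other EGF family ligands HBEGF (1.15) and NRG1 (1.44), the MET ligand HGF (1.45) and FGF5 (1.17) also rose. NRG1 had another probe set of opposite sign. The KIT ligand KITLG fell by 1.25 (-0.67 and -0.41 in the block fits) and the receptor PDGFRB from 8.78 and 8.82 to 8.01 and 7.66 (-0.97). Of 38 MAP kinase feedback and immediate early genes the phosphatase DUSP7 (0.77) and the ETS factor ETV5 (0.85, or 0.54 with 2 batches) rose, both by less than 1 log2 unit. The share called higher was 5.26%, against 2.91% of all genes. A second ETV5 probe set, nearly as bright, differed by -0.08, and the mean over its probe sets by 0.49.

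Of 23 genes in a list of YAP, its partners of the TEAD family and their targets, 4 targets rose and none fell. That was 17.4% called higher, against 2.91% of all genes. The list median was 0.34, and 0.58 with 2 batches. RBMS3, an RNA-binding protein, was at 5.15 and 5.04 in U87MG and 7.59 and 7.60 in U87MGL (2.50, SE 0.20, limma adjusted p = 0.00525), but differed by 0.93 as a mean over probe sets. CRIM1 rose by 1.72 (0.85 with 2 batches), AJUBA by 1.21 (0.66 and 0.59 in the block fits) and AMOTL2, a brake on YAP, by 1.02. In G protein signalling LPAR1, a receptor for lysophosphatidic acid, fell from 9.46 and 9.18 to 6.26 and 6.94 (-2.72, SE 0.25, limma adjusted p = 0.00795). RGS2 fell by 1.31, whereas RGS4, another GTPase activator of the same family, rose from 5.53 and 5.19 to 6.75 and 7.15 (1.59, or 2.44 with 2 batches) and RGS20 rose by 0.84. RGS4 was higher still in U87MGR, at 8.20 and 9.05. Of 30 G protein signalling genes tested, 2 rose and 2 fell (6.67% each, against 2.91% and 1.8% of all genes).

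Axon guidance genes gave 4 rises and 1 fall among 36 (11.1% and 2.78%, against 2.91% and 1.8% of all genes). The share that fell was near that of all genes. EPHA2, an ephrin receptor kinase, was at 7.07 and 5.72 in U87MG and 8.65 and 9.31 in U87MGL (2.58, SE 0.43, limma adjusted p = 0.0258). SEMA7A (1.46), SEMA3A (1.21, or 0.68 as a mean over probe sets and 1.95 with 2 batches) and the semaphorin receptor PLXNA4 (1.01) rose, and the repulsive ligand SLIT3 fell from 8.54 and 8.15 to 6.67 and 6.01 (-2.00, or -1.26 as a mean over probe sets). Among neural and glioma stem cell markers, SOX9 was at 6.21 and 6.30 against 8.59 and 8.52 (2.30, SE 0.31, limma adjusted p = 0.0165), PAX6 rose by 0.96 and the Hedgehog effector GLI1 fell by 1.19 (-0.60 and -0.48 in the block fits), of 19 tested. Of those 19, 10.5% were called higher and 5.26% lower, against 2.91% and 1.8% of all genes. HOXB6, a homeobox gene, was at 4.28 and 4.19 in U87MG and in U87MGL at 6.75 and 6.6 (2.44, SE 0.24, limma adjusted p = 0.00826, or 1.15 as a mean over probe sets). In U87MGR it lay at 3.68 and 4.39. The parental level was under the filter of 4.73, and without detection calls such a fold is uncertain. Its cofactor PBX3 rose by 1.27, and no other of 22 HOX and cofactor genes passed (9.09% called higher, against 2.91% of all genes).

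Of 17 tested glial genes 3 fell and SOX9 rose (17.6% and 5.88%, against 1.8% and 2.91% of all genes). GLUL, the glutamine synthetase of astrocytes, fell from 10.30 and 10.97 to 8.92 and 8.87 (-1.74, SE 0.24, limma adjusted p = 0.0175), and SLC1A3, the glutamate transporter GLAST, from 10.00 and 10.35 to 9.09 and 9.12 (-1.07, SE 0.18, limma adjusted p = 0.0254). The third was CHI3L1. Uptake of glutamate and its conversion to glutamine are linked steps in astrocytes, and SLC1A1, a related glutamate transporter, also fell (-1.37). Of 39 ion channels and transporters, the potassium channel KCNJ2 fell from 7.72 and 8.34 to 5.80 and 5.46 (-2.40) and SLC22A15 by 1.46, while the bicarbonate transporter SLC4A4 rose from 7.12 and 6.07 to 8.70 and 9.0 (2.26, or 1.33 as a mean over probe sets). In the ion channel and transporter list 2.56% were called higher, near the 2.91% of all genes, and 10.3% lower, against 1.8%. Among 22 neuronal secretory and microtubule genes DPYSL3 (2.17), the granin SCG2 (1.64) and RAB3B (1.61) rose and MAP2 fell (-1.74). Their shares were 13.6% and 4.55%, against 2.91% and 1.8% of all genes. SCG2 was at 5.35 and 5.01 in U87MG, 7.18 and 6.47 in U87MGL and 3.74 and 4.44 in U87MGR.

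Metabolic lists held few calls. The aldo-keto reductases AKR1C1 (from 12.97 and 13.04 to 11.50 and 11.77), AKR1C2 (from 12.12 and 12.22 to 10.49 and 10.76) and AKR1C3 (from 10.64 and 10.74 to 9.30 and 9.20), which reduce steroids and carbonyls, fell by 1.37, 1.54 and 1.44 on the log2 scale. As a mean over its probe sets AKR1C1 differed by -0.76. They are near-identical neighbours on chromosome 10, and probe sets may not tell them apart, so they may be a single measurement. The efflux pump ABCC3 (-1.09) and GSTM4 (-0.99) fell too. Of 32 NRF2 targets and reductases these 5 were called (15.6% called lower, against 1.8% of all genes). This count was 7 or 4 with U87MG replicate 1 or 2 left out, 3 with either U87MGR array left out and 0 with either U87MGL array left out. HSD11B1, which regenerates active glucocorticoid, fell from 8.74 and 7.88 to 4.98 and 5.68 (-2.98), and CH25H, which makes 25-hydroxycholesterol, from 9.41 and 9.31 to 6.70 and 6.10 (-2.96, SE 0.22, limma adjusted p = 0.00371).

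Cholesterol and fatty acid synthesis had a median of -0.51, and both U87MGL arrays were below both parental arrays in 21 of 30 genes, as for 28.4% of all genes. Only the fatty acid elongases ELOVL6 (1.02, or 0.62 and 0.59 in the block fits) and ELOVL7 (-0.87) passed. These were 3.33% called in each direction, against 2.91% higher and 1.8% lower over all genes. Without U87MG replicate 1 the median was -0.74 and 10 members were called lower, and without U87MG replicate 2 it was -0.24 with 0 called in either direction. None of 38 hypoxia and glycolysis genes passed either. Their median was 0.44, and 0.23 without U87MG replicate 2 and 0.12 and -0.17 with 2 and 3 batches. ANGPTL4 was at 1.99 (limma adjusted p = 0.0596, or 1.27 without U87MGL replicate 2). None of 40 genes of oxidative phosphorylation passed, and their median was -0.09, with SDHC at -0.68 (limma adjusted p = 0.105, or -0.40 as a mean over probe sets, which differ in sign). Of 45 genes of protein folding and amino acid stress DDIT3, the stress factor CHOP, fell by 1.17 and none rose. The share called lower, 2.22%, was near the 1.8% of all genes.

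Of 27 genes of the lysosome and of the complexes that sort to related organelles, 3 lysosomal genes fell and none rose. That was 11.1% called lower, against 1.8% of all genes. NPC2, a cholesterol carrier of the lysosome, was at 12.19 and 12.52 in U87MG and 11.50 and 11.10 in U87MGL (-1.05). The calcium channel MCOLN1 was at 9.28 and 9.53 against 8.22 and 8.51 (-1.04, or -0.65 with 3 batches), and the glycogen-cleaving glucosidase GAA at 7.35 and 7.12 against 6.40 and 6.31 (-0.88). The promoters of MCOLN1 and GAA each hold TCACGTGA, the palindrome to which the lysosomal regulators of the TFEB family are known to bind, 2 times in the 120 bases before the start. These are shown in capitals, with MCOLN1 at chr19:7522504-7522623 and GAA at chr17:80101461-80101580 of GRCh38.p14, both on the plus strand.
MCOLN1: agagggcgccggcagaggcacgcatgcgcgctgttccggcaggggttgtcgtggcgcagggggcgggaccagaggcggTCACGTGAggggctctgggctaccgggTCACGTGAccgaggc
GAA: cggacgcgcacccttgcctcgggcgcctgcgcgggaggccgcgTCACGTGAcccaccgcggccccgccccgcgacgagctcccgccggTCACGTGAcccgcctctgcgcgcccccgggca
This motif was in 2 of the 3 called genes of this list (66.7%), in 4 of 18 not called (22.2%) and in 1.54% of the tested promoters, over 250 bases. With U87MG replicate 1 or 2 left out 4 or 1 were called, and with any of the other 4 arrays left out 0. GPNMB, a membrane glycoprotein of lysosomes and melanosomes, was outside that list and fell from 11.69 and 12.96 to 9.14 and 7.62, 15.4-fold lower (-3.95, SE 0.58, limma adjusted p = 0.0189, or -2.54 with 3 batches).

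In a list of N-glycan processing and related enzymes 3 of 25 genes fell and none rose. MAN1C1, which removes mannose from N-glycans in the Golgi, was at 7.91 and 8.35 in U87MG and 5.21 and 4.70 in U87MGL, 9.03-fold lower (-3.17, SE 0.24, limma adjusted p = 0.00371), with 7.41 and 7.60 in U87MGR. The sialyltransferase ST3GAL6 (-1.45) and GALNT5 (-0.93), which starts O-glycans, fell too; both were closer to 0 as a mean over probe sets, at -0.64 and -0.57, and GALNT5 was at -0.58 with 2 batches. Outside that list GCNT2, which branches poly-N-acetyllactosamine chains, rose from 5.15 and 4.75 to 7.36 and 8.13 (2.79, SE 0.27, limma adjusted p = 0.00824). Of 17 F-box genes of the FBXL family, FBXL13 rose by 1.73 (0.71 as a mean over probe sets), and FBXL16 fell from 7.85 and 8.17 to 5.75 and 5.79 (-2.23, with -1.39 and -1.23 in the block fits). FBXL16 was higher in U87MGR than in either other group, at 9.22 and 10.07. In the FBXL list 5.88% were called in each direction, against 2.91% higher and 1.8% lower over all genes.

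**Figure D5:**
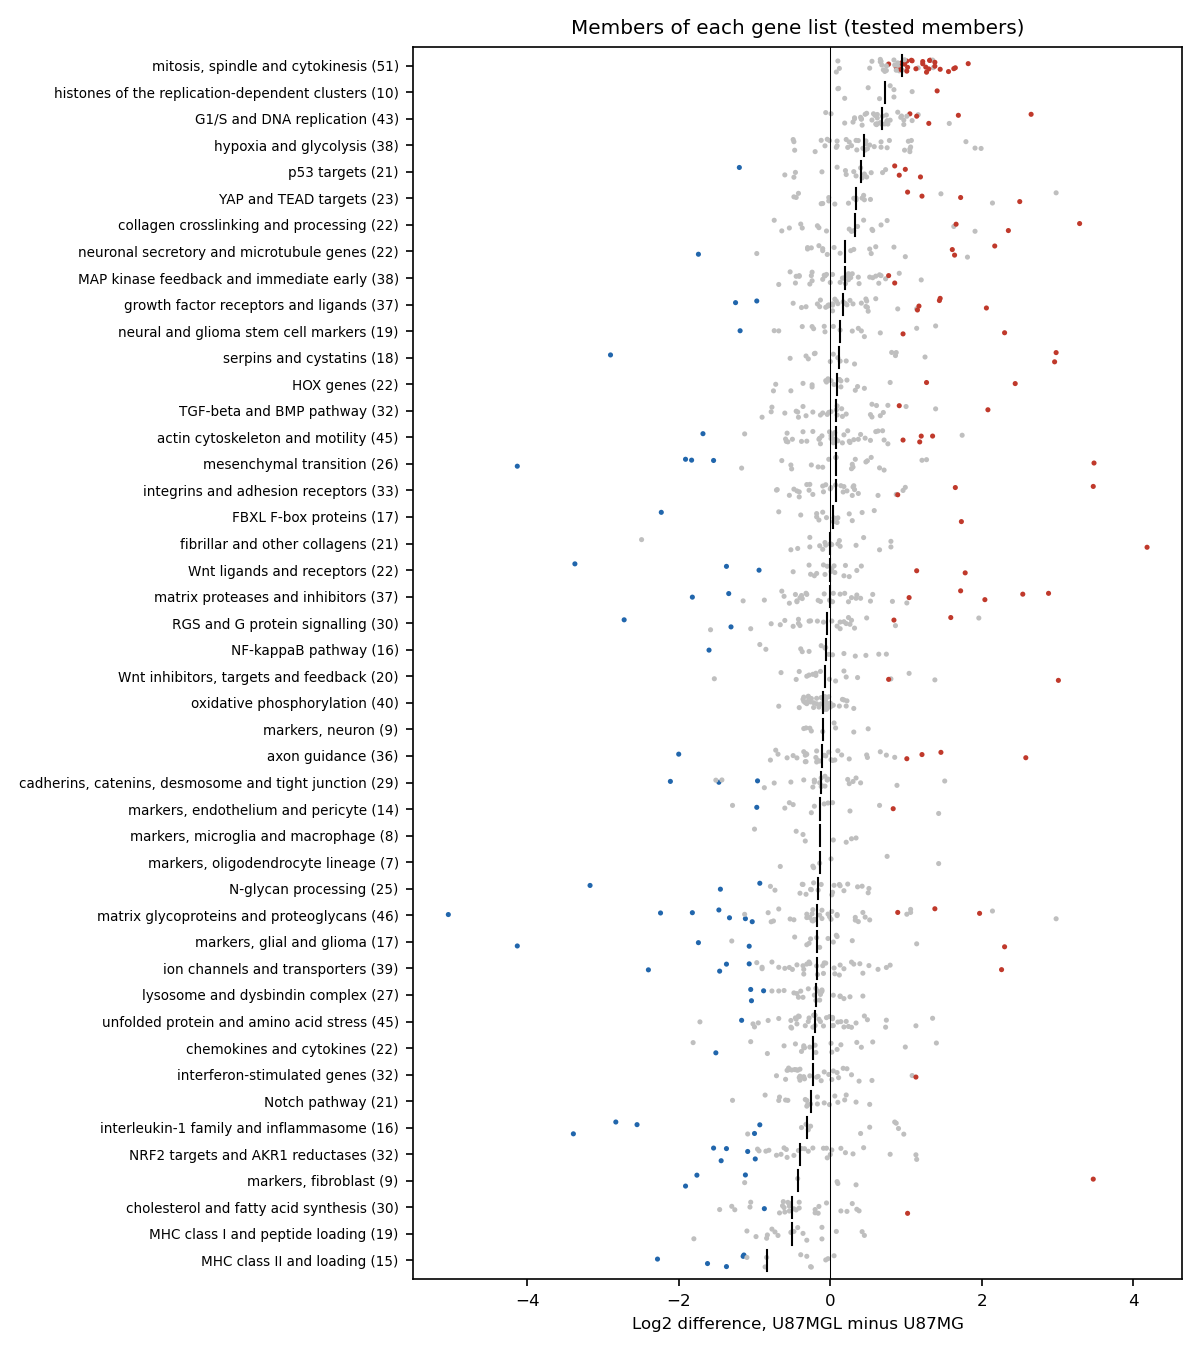
Log2 difference, U87MGL minus U87MG (x axis), of the tested members of each of the 46 gene lists (rows, number tested in brackets, ordered by median), with genes called higher in red, called lower in blue, others in grey, and a black bar at each list's median. Mitosis has the highest median, at 0.95, and MHC class II the lowest, at -0.84.

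Across the 46 lists, 1147 distinct autosomal genes were tested, of which 93 rose and 61 fell, and 39 lists held at least 1 called gene. Of 1409 distinct genes listed, 149 were measured under the filter, 99 had no probe set with a single symbol and 14 were not autosomal. Several of the largest changes were in genes of no list. OLFML3, a secreted olfactomedin-like protein, fell from 8.70 and 9.96 to 6.03 and 5.82 (-3.41), the kinase DCLK1 from 8.91 and 10.22 to 6.78 and 5.69 (-3.33, or -2.02 as a mean over probe sets), PNLIPRP3 by 3.0 and suprabasin (SBSN) by 2.75. Keratin KRT15 rose from 4.88 and 5.03 to 8.13 and 7.71 (2.97, SE 0.19, limma adjusted p = 0.00339). The anion exchanger pendrin (SLC26A4) rose by 2.85 from parental levels of 4.23 and 3.89, under the filter, FAM107B by 2.72, the adhesion receptor ADGRE1 by 2.67, C18orf54 by 2.66 (1.16 as a mean over probe sets) and the secreted protein CTHRC1 by 2.66.

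Along the autosomes, called genes were spread over every chromosome. The share called was lowest on chromosome 20 (2.7%) and highest on chromosome 4 (6.89%), against 4.71% of all autosomal genes. Median differences per chromosome lay between -0.09 (chromosome 1) and 0.10 (chromosome 18). Chromosome 7 had 31 of 679 genes called higher and 5 lower (4.57% and 0.736%). Chromosome 1 had 28 and 45 of 1449 (1.93% and 3.11%). Over all autosomal genes the shares were 2.91% and 1.8%. Runs of 3 or more neighbouring tested genes called in the same direction numbered 4. They were the AKR1C and complement genes above, NCEH1 (1.86), ECT2 (0.77, or 0.41 as a mean over probe sets) and NLGN1 (1.04) on chromosome 3, and BCAP29 (0.81, or 0.43 as such a mean), SLC26A4 (2.85) and CBLL1-AS1 (1.05, or 0.45 and 0.33 in the block fits) on chromosome 7. ECT2, which steers cytokinesis, is also a member of the mitosis list. CBLL1-AS1 is an antisense gene, and its value is uncertain for that reason.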

How the data were processed

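Total RNA of 6 cultured samples was labelled as biotinylated cRNA and read on single-colour oligonucleotide arrays, per the labels' protocols. The authors deposited log2 signals of 54675 probe sets, from 2.38 to 14.58. The normalization was not given in the sources used here, and no further scaling was applied. Detection calls were not used here, so low levels are uncertain.

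Probe sets were named through the platform's annotation table: 41097 carried 1 symbol, 1801 several and 11777 none, and by gene number 99.9% of the first matched the annotation of GRCh38.p14. For 19775 genes the reading was that of the brightest 1-symbol probe set by the mean over 6 arrays, and genes whose mean was at least 4.73, the 40th percentile, were tested. Limma 3.58.1 (R 4.3.3) fitted a mean per group over all 6 arrays, with 3 residual and 4.05 prior degrees of freedom, and was tested on simulated data. A gene was called at a two-sided Benjamini-Hochberg adjusted p under 0.05 over 14513 genes. The 39 called genes off the autosomes are not described. Such p-values measure the spread among these samples, which may be technical. The number of arrays limits precision: the median standard error was 0.19.

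Named genes were FZD4, the 15 largest called rises and falls, up to 3 called rises and falls per list (or 2 uncalled members by size), and runs of neighbouring called genes. Other called members and BUB3, INCENP, CDC25B, CIITA and IL1B were chosen after their values were seen, as were the promoters printed. The members and lists were chosen with earlier results of these data known. Promoters are the first start listed per gene in the RefSeq table. Alternatives were other filters, quantile normalization, the mean over a gene's probe sets, limma with an intensity trend, blocks for replicate number or spike-in batch, the 4 arrays alone, and each array left out.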

Additional observations from a re-analysis of the deposited data

How the results depend on the processing

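With the U87MGL and U87MG arrays alone, limma called 113 genes higher and 86 lower. Blocks for 2 or 3 spike-in batches gave 0 and 0 (at an unadjusted p under 0.05, 615 and 568, and 1058 and 1080), with lowest adjusted p-values of 0.125 and 0.0936; 520 and 531 of the 660 called genes kept an unadjusted p under 0.05. The fit with 3 batches leaves U87MG replicate 2 out. With 1 array left out, the counts ran from 15 to 839 higher and from 19 to 640 lower. Called genes kept their sign under every alternative that gave a value, except MBD5 (0.91, or -0.11 as a mean over probe sets). In each called gene the U87MGL arrays lay wholly above or wholly below the U87MG arrays. Leaving out an array could therefore not turn the sign. Nor could other filters, the intensity trend, the replicate block or the U87MGL and U87MG arrays alone, which leave the difference unchanged. The sign was thus open to change only under the mean over probe sets, quantile normalization and the spike-in blocks. Of genes not called, FZD4 turned to -0.02 under quantile normalization, -0.09 with 3 batches, and between -0.21 and 0.30 with 1 array left out (-0.21 without U87MG replicate 2, -0.07 without U87MGL replicate 1), LOX to -0.17 with 3 batches, and UGT8 to -0.12 and -0.25 with 2 and 3 batches. The cause of these changes was not tested.

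The replicate numbers were checked as a pairing: deviations of equally numbered U87MG and U87MGL arrays correlated at -0.09 across genes, so they share only a number. Entering the replicate number as a block, limma called 344 higher and 224 lower. The number of arrays, 2 a group, limits the precision, and a difference that was not called is not shown to be absent.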
